A study of Homo sapiens with 6 samples.

Results

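The mRNA levels of 8 genes of the apoptosis machinery, of the 61541 Ensembl genes in the deposited count table, were examined in luciferases-expressing HepG2 cells. They were chosen by symbol, as 2 initiator caspases (CASP8 and CASP9), 3 proteins that leave mitochondria in dying cells (CYCS, AIFM1 and ENDOG), 2 guardians of the BCL2 family (BCL2L1 and MCL1) and the caspase inhibitor XIAP. RNA-seq compared 3 libraries of control cells with 3 libraries of cells kept in 100 μM sedanolide, a phthalide, for 24 h. HepG2 is a human hepatoblastoma line, and all 6 libraries came from the same derivative, which carries an SLR3 luciferase behind antioxidant response elements (AREs) and an ELuc luciferase behind a TK promoter on an artificial chromosome. The stock of sedanolide was made in DMSO, and the labels describe the controls as control only. None of the libraries had been exposed to H2O2, so the values describe the cells before any oxidative challenge.

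Apoptosis is run by caspases, proteases that are made as inactive precursors. Death receptors activate caspase-8, while damaged mitochondria release cytochrome c, which joins APAF1 and caspase-9 in the apoptosome. Guardians such as BCL-XL and MCL-1 hold the effectors BAX and BAK in check at the outer mitochondrial membrane, and XIAP binds caspases directly. Hepatocytes are known for linking both routes through BID, a substrate of caspase-8. Much of this control acts on proteins that are already present, and it cannot be seen in mRNA.

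Libraries held 16420258 to 22940963 expected counts in control cells and 19027265 to 26714853 in sedanolide-treated cells. Nothing in the labels says whether the replicates were separate cultures, so that p-values measure the spread between these libraries only. Hepatocyte lineage markers were abundant, all 9 with at least 10 counts in every library. The 6 markers of blood, endothelial and stromal cells summed to 5.23 to 8.34 CPM (read counts scaled to the library size). Of these 6, 2 had at least 10 counts in every library, CD14 (36 to 78 counts) and PECAM1 (71 to 137 counts). CD3E and COL1A2 had no count. The libraries were also split by something other than treatment. Principal component 1 of log2 CPM (56.1% of the variance) separated a side A (control 1 and 2 with sedanolide 3) from a side B (control 3 with sedanolide 1 and 2). Genes of the mitochondrial genome took 1.43% to 2.15% of the counts on side A and 4.23% to 5.22% on side B. Each side holds libraries of both groups, so that comparisons within the sides are given beside the pooled ones.

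Promoter sequences are shown for the 3 mitochondrial factors, because CYCS had the largest fitted increase that set the groups apart and because AIFM1 and ENDOG moved together between libraries. The bases lie directly upstream of the annotated gene, 5′ to 3′ on the strand of the gene (RefSeq, GRCh38). Capitals mark matches to TGCGCA, a half-site of NRF1. NRF1 is nuclear respiratory factor 1, a regulator of mitochondrial genes that is not NRF2.
CYCS (chr7:25125261-25125510, minus strand): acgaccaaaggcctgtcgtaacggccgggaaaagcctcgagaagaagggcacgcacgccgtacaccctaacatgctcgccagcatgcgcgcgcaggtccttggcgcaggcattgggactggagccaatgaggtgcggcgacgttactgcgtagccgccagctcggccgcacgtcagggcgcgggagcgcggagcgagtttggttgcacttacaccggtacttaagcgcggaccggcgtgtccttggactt
AIFM1 (chrX:130165880-130166091, minus strand): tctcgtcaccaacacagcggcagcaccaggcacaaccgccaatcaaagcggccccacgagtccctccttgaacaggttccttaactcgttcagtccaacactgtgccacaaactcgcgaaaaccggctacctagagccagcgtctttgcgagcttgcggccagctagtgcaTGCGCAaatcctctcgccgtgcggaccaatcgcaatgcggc
ENDOG (chr9:128818250-128818499, plus strand): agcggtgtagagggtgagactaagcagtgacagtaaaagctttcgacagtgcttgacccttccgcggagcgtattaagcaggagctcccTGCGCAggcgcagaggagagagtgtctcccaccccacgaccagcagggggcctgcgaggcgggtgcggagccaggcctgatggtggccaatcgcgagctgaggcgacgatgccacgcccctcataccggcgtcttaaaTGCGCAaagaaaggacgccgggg

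RefSeq windows of 250 bases upstream of a start were found for 7 of the 8 genes, 13 windows in all, and MCL1 had none. The half-site TGCGCA, which reads the same on both strands, occurred at 161 and 23 bases before the start of ENDOG and at 79 and 23 bases before that of AIFM1, counted from the RefSeq start, the latter outside the stretch printed above. XIAP held it once, at 95 bases, and no window of CYCS, CASP8, CASP9 or BCL2L1 did. The half-site is present in 6.89% of the 35116 windows of all genes. A longer core of the NRF1 site was searched too (5.07% of all windows hold it). It matched in ENDOG, at 160 bases before the start, and in no other window of the 7 genes. Variants of these letters were not searched, so a window without a match, as for CYCS, may still hold an NRF1 site. The ARE core TGACNNNGC, the letters shared with the elements of the reporter, was searched on both strands as well. It was absent from 12 of the 13 windows and matched once, in a window of XIAP on the minus strand (10.9% of all windows hold it). That match is shown in capitals with 10 bases on each side, because it was the single ARE core found. Both this match and the half-site of XIAP lie upstream of a RefSeq start but inside the GENCODE gene, which begins at 123859712.
XIAP (chrX:123859724-123859752, plus strand): atgtgcgcgcGCTAGGTCAgcttctcggt
These are matches of letters, and no binding was measured.

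None of the 8 genes passed both thresholds (FDR 0.05, fold change 1.5) with edgeR. By these rules 0.667% of all genes tested were called, 0.355% higher and 0.312% lower. None of the 8 was called with DESeq2 (0.915% of all genes higher, 1.4% lower) or with the library side as a term (1.06% higher, 1.62% lower) either. The fitted changes of the 8 genes were small. The largest was 1.29-fold for CYCS, and 6 of the 8 genes had a positive log2 fold change, against 50.7% of all genes. The median log2 fold change of the 8 genes was 0.21, against 0.0057 over all genes tested. CYCS and MCL1 were the 2 genes in which every sedanolide library was above every control library in normalized CPM, as held in this direction for 8.69% of all genes, while 9.65% had the reverse order and 18.3% either. Within both sides 6 of the 8 genes were higher, against 36.6% of all genes. CYCS and MCL1 were also the 2 with an unadjusted p-value under 0.05 from edgeR (5.34% of all genes in this direction, 11.9% in either). All 8 had at least 151 counts in every library. For comparison NQO1, a standard NRF2 target, had a fold change of 2.31 (95% interval 1.88 to 2.85) in the same fit.

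**Figure D1:**
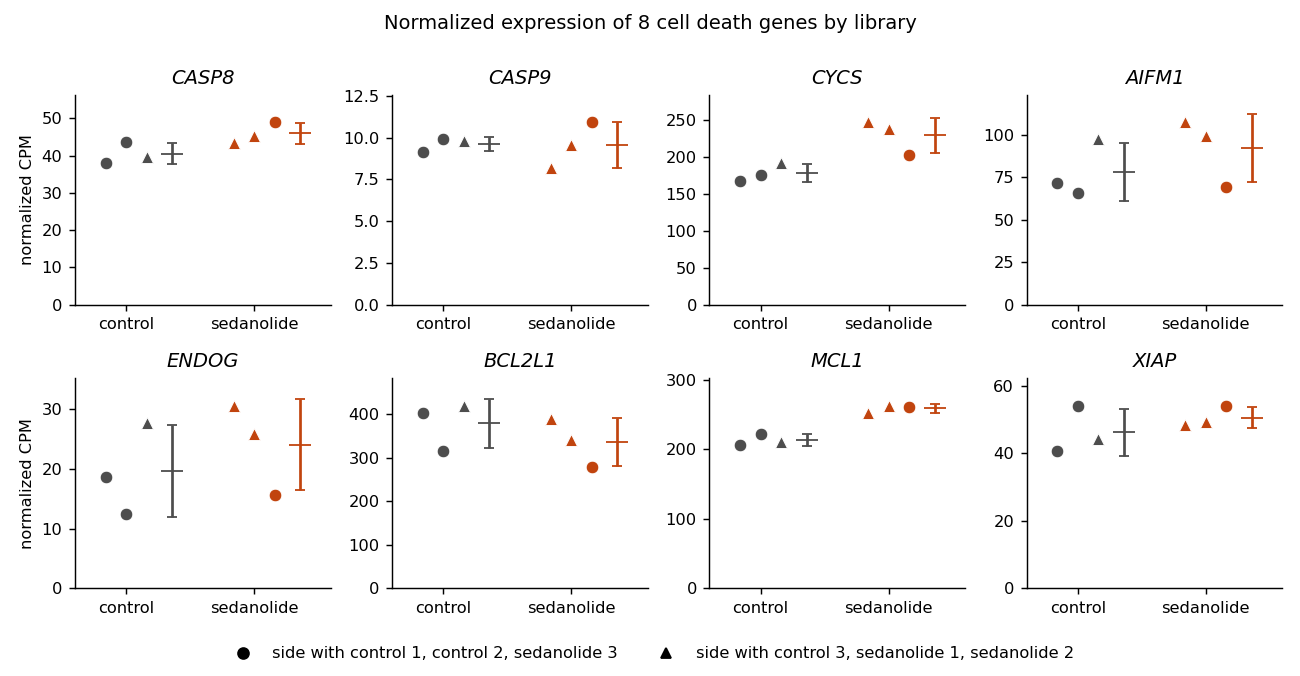
Normalized CPM of the 8 genes (vertical axes, starting at 0) in control and sedanolide libraries, with circles for side A, triangles for side B and bars for mean ± SD of 3 libraries. The groups are apart for CYCS and MCL1, while ENDOG and AIFM1 separate circles from triangles in both groups.

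CASP8 and CASP9 start the receptor and the mitochondrial route. CASP8 (ENSG00000064012, chromosome 2 of GRCh38, 201233443 to 201361836, plus strand) was at 38.1, 43.6 and 39.7 CPM in control 1 to 3 and at 43.5, 45.3 and 49.0 CPM in sedanolide 1 to 3. In CPM the groups overlapped by control 2 alone, which was just above sedanolide 1. The fitted log2 difference was 0.18 (95% interval -0.084 to 0.45, SE 0.114, edgeR adjusted p = 0.580), and it was 0.27 within side A and 0.16 within side B. In the log2 table of TPM, a unit that accounts for transcript length, the groups overlapped more widely, with 24.9, 34.5 and 27.1 TPM in control cells and 27.3, 27.5 and 35.9 TPM in sedanolide-treated cells, and the log2 fold change was 0.067 (adjusted p = 0.889 from limma).

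CASP9 (ENSG00000132906, chromosome 1, 15490832 to 15526534, minus strand) was the least abundant of the 8, with 151 to 276 counts per library. It was at 9.15, 9.91 and 9.78 CPM in control cells and at 8.17, 9.54 and 10.9 CPM in sedanolide-treated cells. The sedanolide libraries spanned the control libraries on both ends. Its log2 fold change was -0.0077 (95% interval -0.36 to 0.34, adjusted p = 0.986 from edgeR). It was 0.20 within side A and -0.15 within side B, so that CASP9 was the 1 gene of the 8 whose sign differed between the sides. With the side as a term the value was 0.036. Both caspase genes encode several proteins, with 17 and 8 protein-coding transcripts in GENCODE 44, and a count per gene does not tell full-length from shortened forms.

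CYCS encodes cytochrome c, which carries electrons in the respiratory chain and triggers the apoptosome once it reaches the cytosol. CYCS (ENSG00000172115, chromosome 7, 25118656 to 25125260, minus strand) was at 167.4, 175.1 and 191.7 CPM in control cells and at 247.5, 238.6 and 202.3 CPM in sedanolide-treated cells. All sedanolide libraries were above all control libraries, and sedanolide 3 was the closest to the controls. The log2 fold change was 0.37 (standard error 0.127, 95% interval 0.067 to 0.66), with an unadjusted p of 0.0231 and an adjusted p of 0.318 from edgeR. It was 0.24 within side A and 0.34 within side B, and 0.29 with the side as a term (adjusted p = 0.0986). The gene has many processed copies in the genome. The count table lists 42 of them, and they came to 0.390% of the counts of CYCS, though reads that match several copies are divided by RSEM and the split could not be checked.

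AIFM1 encodes the apoptosis-inducing factor, a flavoprotein of the intermembrane space that moves to the nucleus in caspase-independent death. AIFM1 (ENSG00000156709, chromosome X, 130124666 to 130165879, minus strand) was at 71.2, 65.7 and 97.7 CPM in control cells and at 107.4, 99.3 and 69.3 CPM in sedanolide-treated cells. High and low libraries were found in both groups. Its log2 fold change was 0.23 (95% interval -0.28 to 0.75, adjusted p = 0.710 from edgeR), and it was 0.019 within side A and 0.081 within side B.

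ENDOG encodes endonuclease G, a mitochondrial nuclease that cuts DNA after its release. ENDOG (ENSG00000167136, chromosome 9, 128818500 to 128822676, plus strand) was at 18.7, 12.4 and 27.8 CPM in control cells and at 30.6, 25.8 and 15.7 CPM in sedanolide-treated cells. The lowest library was a control and the next lowest a sedanolide library, so the groups overlapped widely. Its log2 fold change of 0.29 had the widest interval of the 8 genes (95% interval -0.51 to 1.10, adjusted p = 0.767 from edgeR). It fell to 0.046 within side A, 0.017 within side B and 0.024 with the side as a term. ENDOG shares 459 exon bases with SPOUT1 on the opposite strand, and SPOUT1 had 112.1% as many counts as ENDOG. The library kit keeps strand, but the setting used for counting is not given in the sources used here. SPOUT1 was at 21.1 to 24.2 CPM in control and 24.9 to 25.8 CPM in sedanolide libraries, and it did not follow the sides.

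ENDOG and AIFM1 differed more between the sides than between the groups. Control 3 exceeded the mean of control 1 and 2 by 0.86 in log2 CPM for ENDOG and by 0.51 for AIFM1. The mean of sedanolide 1 and 2 exceeded sedanolide 3 by 0.83 and 0.58. The median absolute difference over all genes tested was 0.26 among controls and 0.33 among sedanolide libraries. BCL2L1 differed in the same direction by 0.24 and 0.38, also more in size than its fitted group difference of -0.17. CASP9, with a group difference of -0.0077, differed by 0.038 and -0.31, of opposite signs. CYCS differed by 0.16 and 0.26, and MCL1 by -0.023 and -0.022. The share of counts from the mitochondrial genome was also higher on side B in both groups, and its part in these values was not tested. As the sides were drawn from the same libraries, these differences are given without a test.

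**Figure D2:**
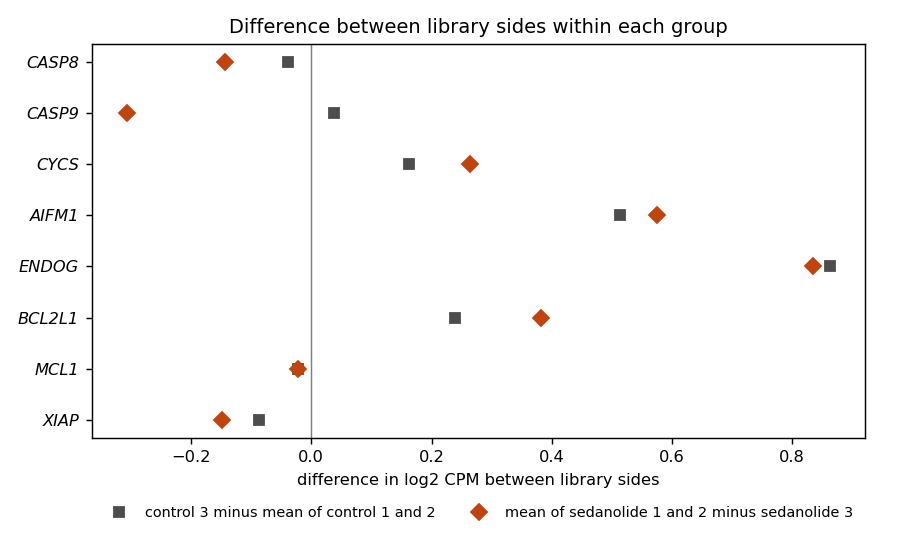
Difference in log2 CPM between library sides for each gene (horizontal axis), as control 3 minus the mean of control 1 and 2 (squares) and the mean of sedanolide 1 and 2 minus sedanolide 3 (diamonds). ENDOG lies at 0.86 and 0.83 and AIFM1 at 0.51 and 0.58, while MCL1 lies at -0.023 and -0.022.

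BCL2L1 encodes BCL-XL, and a shorter product of the same gene promotes death. BCL2L1 (ENSG00000171552, chromosome 20, 31664452 to 31723989, minus strand) was at 401.2, 314.2 and 419.2 CPM in control cells and at 389.1, 339.5 and 278.7 CPM in sedanolide-treated cells. Control 2 was within the range of the sedanolide libraries. It was the 1 gene of the 8 that was lower within both sides, by log2 differences of -0.35 within side A and -0.21 within side B, as held for 33.8% of all genes. The pooled log2 fold change was -0.17 (95% interval -0.58 to 0.23, adjusted p = 0.728 from edgeR). With the side as a term it was -0.28 (95% interval -0.55 to -0.013), with an unadjusted p of 0.0420 and an adjusted p of 0.234. In the TPM values BCL2L1 was at 220.6, 194.9 and 223.3 in control cells and at 189.2, 171.4 and 156.6 in sedanolide-treated cells. There all 3 sedanolide libraries were below all controls, as held in this direction for 11.3% of the genes of that table (5.9% in the other direction, where CYCS stood, and 17.2% in either), and the log2 fold change was -0.31 (adjusted p = 0.425 from limma).

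MCL1 encodes a guardian with a short-lived protein and mRNA. MCL1 (ENSG00000143384, chromosome 1, 150560895 to 150579738, minus strand) was at 206.0, 222.5 and 210.8 CPM in control cells and at 251.9, 262.8 and 261.2 CPM in sedanolide-treated cells. The groups were apart, and the SD was 8.47 CPM among control and 5.86 CPM among sedanolide libraries. The log2 fold change was 0.28 (standard error 0.103, 95% interval 0.037 to 0.52), with an unadjusted p of 0.0295 and an adjusted p of 0.353 from edgeR. It was 0.29 within side A, 0.29 within side B and 0.29 with the side as a term (adjusted p = 0.101). In TPM the groups overlapped, with 77.1, 90.9 and 74.7 in control cells and 83.5, 89.2 and 101.7 in sedanolide-treated cells, and the log2 fold change was 0.18 (adjusted p = 0.662 from limma). MCL1 shares 43 exon bases with ADAMTSL4 on the opposite strand, which had 7.39% as many counts. The 2 tables are on different scales, since the median log2 fold change of all genes was -0.074 in the TPM table.

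XIAP binds and blocks caspase-9, among other caspases. XIAP (ENSG00000101966, chromosome X, 123859712 to 123913972, plus strand) was at 40.6, 54.0 and 44.1 CPM in control cells and at 48.2, 49.3 and 54.1 CPM in sedanolide-treated cells. Control 2 was level with the highest sedanolide library. The log2 fold change was 0.13 (95% interval -0.20 to 0.46, adjusted p = 0.753 from edgeR), and it was 0.21 within side A and 0.15 within side B. In the TPM table it was -0.050, of the opposite sign.

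A missed threshold does not show that a gene was unchanged, and the intervals give the size that the libraries could still hide. For 5 of the 8 genes (CASP8, CASP9, BCL2L1, MCL1 and XIAP), the 95% interval lay inside a change of 1.5-fold in either direction. For CYCS it reached 1.59-fold higher, for AIFM1 1.68-fold and for ENDOG 2.15-fold. The count of 5 depended on single libraries. It was 3 (CASP8, CASP9 and XIAP) without control 2, without sedanolide 1 or without sedanolide 2, where BCL2L1 and MCL1 reached past 1.5-fold, and 4 without control 1 or control 3. With the side as a term it was 8. The side was drawn from the same libraries, so the intervals of that fit do not carry the uncertainty of choosing it. In the log2 table of TPM the count was again 5, but of other genes. There CYCS and AIFM1 lay inside 1.5-fold, and BCL2L1 and XIAP reached past it.

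**Figure D3:**
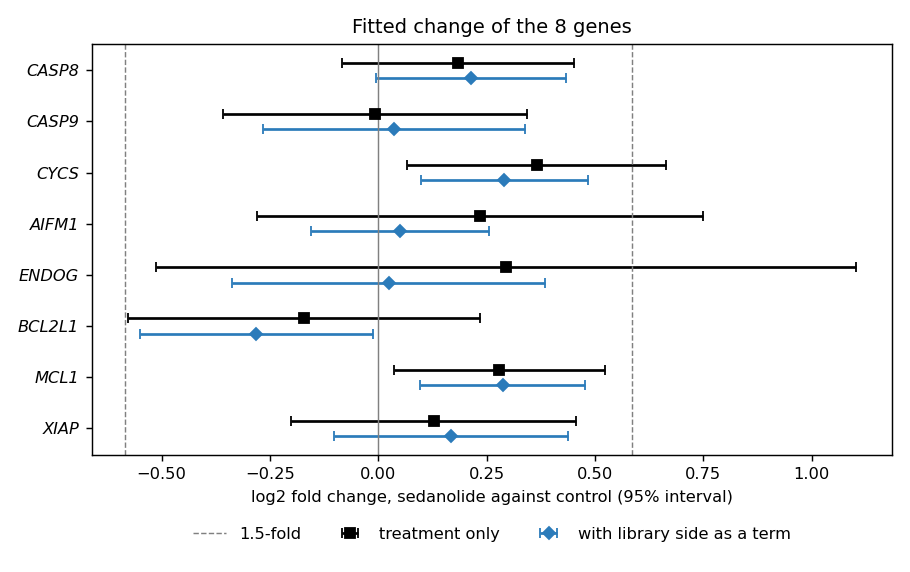
Fitted log2 fold change of sedanolide against control with 95% intervals for the 8 genes, without (squares) and with (diamonds) the library side as a term, and dashed lines at 1.5-fold. The intervals of CYCS and MCL1 exclude 0 in both fits, and those of AIFM1 and ENDOG narrow around 0.050 and 0.024 with the term.

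Per transcript length, BCL2L1 was the most abundant of the 8 in control cells with 213.0 ± 15.7 TPM (SD, n = 3), followed by CYCS with 149.4 ± 6.70, MCL1 with 80.9 ± 8.73, AIFM1 with 56.5 ± 7.98, ENDOG with 29.3 ± 9.62, CASP8 with 28.8 ± 5.05, XIAP with 13.8 ± 2.57 and CASP9 with 9.24 ± 1.65. ENDOG and CASP8 had overlapping values, and so had XIAP and CASP9 (10.8 TPM in the lowest XIAP and 10.9 TPM in the highest CASP9 library), whereas the other neighbors in this order did not overlap. In sedanolide-treated cells CYCS, at 179.4 ± 7.51 TPM (SD, n = 3), and BCL2L1, at 172.4 ± 16.3 TPM, overlapped.

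**Figure D4:**
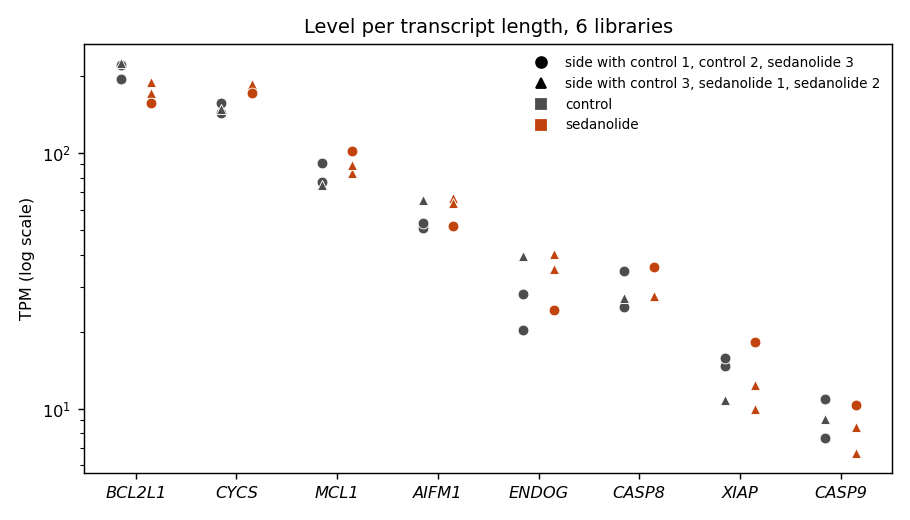
TPM on a log scale for the 8 genes in order of the control mean, with control libraries in gray, sedanolide libraries in orange, circles for side A and triangles for side B. BCL2L1 lies above CYCS in controls and the 2 genes overlap after sedanolide.

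The ratio of CYCS to BCL2L1 was computed after these values were seen and is given as a description. It was 0.417, 0.557 and 0.457 in control 1 to 3 and 0.636, 0.703 and 0.726 in sedanolide 1 to 3 from CPM. No sedanolide library reached down to a control. CYCS and BCL2L1 had the highest and the lowest fitted log2 fold change of the genes examined, so this choice itself favors a separation. No share over other pairs of genes was computed. On the log2 scale the difference was 0.54 from CPM and 0.57 from TPM, and it was 0.59 within side A and 0.55 within side B from CPM.

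A wider list of 48 cell death genes was written from general knowledge, by role. Of these, 40 had enough counts to be tested, and the other 8 had at most 6 counts in any library. None of the 40 passed both thresholds (edgeR), 3 were higher and 3 were lower at an unadjusted p-value under 0.05, against 5.34% and 6.57% of all genes, and DESeq2 called 1 lower gene. The median log2 fold change was 0.055. The 6 genes with these p-values belong to several roles. Higher were the guardian BCL2, the BH3-only protein BID, which caspase-8 cleaves, and the caspase CASP6. Lower were BMF, a BH3-only protein that neutralizes guardians, AIFM3, a relative of AIFM1, and BCL2L2, the guardian BCL-W.

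BMF had the smallest p-value of the list. It was at 41.1, 41.8 and 34.0 CPM in control cells and at 18.5, 16.8 and 25.8 CPM in sedanolide-treated cells, so that the groups did not overlap. BMF had a fitted log2 difference of -0.93 (SE 0.189, edgeR adjusted p = 0.110), and -0.68 within side A and -0.94 within side B. BMF passed both thresholds with the side as a term (log2 fold change -0.81, adjusted p = 0.00376) and with DESeq2 (adjusted p = 0.00240), where 2.69% and 2.31% of all genes were called. The side was drawn from the same libraries, and the p-value with that term does not carry the uncertainty of choosing it. In the log2 table of TPM, BMF did not pass (log2 fold change -1.08, adjusted p = 0.167 from limma).

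BCL2 was rare, with 9, 23 and 14 counts in control 1 to 3 and 31, 35 and 52 in sedanolide 1 to 3. The groups did not overlap in CPM, and the fitted log2 difference was 1.11 (SE 0.304, edgeR adjusted p = 0.215). BCL2L2 went from 36.8, 46.6 and 30.2 CPM in control to 18.2, 18.5 and 32.0 CPM in sedanolide libraries. Sedanolide 3 overlapped the controls (log2 fold change -0.72, adjusted p = 0.353 from edgeR). BCL2L2 was lower within both sides, by -0.37 in side A and -0.71 in side B. With the side as a term its value was -0.54 (adjusted p = 0.0483 from edgeR), short of 1.5-fold. The limit given for that term under BMF holds here too. Guardians of the BCL2 family thus had fitted values of both signs. The fitted log2 difference was 0.37 for BID (edgeR adjusted p = 0.245), 0.50 for CASP6 (adjusted p = 0.315) and -0.53 for AIFM3 (adjusted p = 0.316), and the groups did not overlap in any of the 3. These genes were picked by their p-value. Over the 40 tested genes the groups did not overlap for 4 higher and 3 lower genes, beside 8.69% and 9.65% of all genes.

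**Figure D5:**
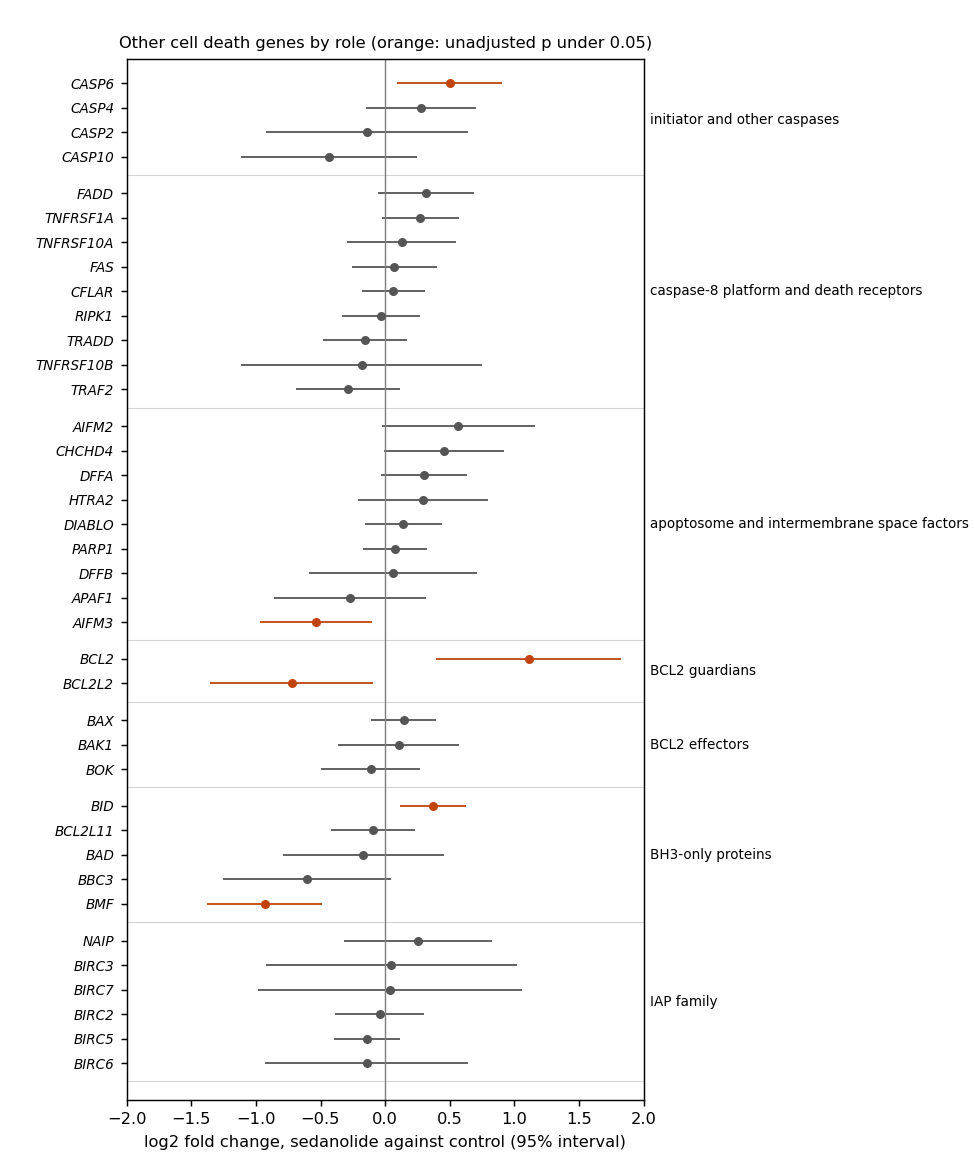
Log2 fold change of sedanolide against control with 95% intervals for 38 of the 40 tested genes of the wider list, grouped by role, with genes at an unadjusted p-value under 0.05 in orange. BMF lies lowest at -0.93 and BCL2 highest at 1.11, and most intervals include 0.

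The libraries were also used to ask which of the other cell death genes lay closest to each of the 8. The distance was the root mean square difference of centered log2 CPM over 6 libraries, among 46 genes with at least 1 CPM. CASP8 and MCL1 were nearest to each other, at 0.067, and XIAP was nearest to CASP8 at 0.070. CYCS was nearest to DFFA, the inhibitor of the apoptotic DNase, at 0.070, AIFM1 to CASP4 at 0.082, and ENDOG to AIFM2 at 0.19. BCL2L1 was nearest to BOK at 0.049, and CASP9 to BCL2L11 at 0.077. For each of the 8 genes the median distance to the others was between 0.24 and 0.49. With 6 libraries on 2 sides, likeness of this kind includes the difference between the sides. The distance is not scaled by spread, so genes that vary little between libraries lie close to each other.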

How the data were processed

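Per the labels, RNA was extracted with an RNeasy Mini Kit and directional libraries were prepared. The authors captured mRNA, sequenced 150 bp paired-end reads, used Trimmomatic for trimming, STAR for alignment to GRCh38 and RSEM for quantification. The versions and the annotation are not given in the sources used here. The authors deposited expected counts from RSEM for 61541 genes and 2 reporters, without normalization, and log2(TPM + 1) values for 11006 genes, whose filter is not stated. All 8 genes are in both tables.

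Here counts were rounded, filtered by filterByExpr, normalized by TMM and tested in R 4.3.3 with edgeR 4.0.16 (robust quasi-likelihood, treatment as the single term, Benjamini-Hochberg adjustment over all genes), with 14102 genes and 2 reporters in the fit. Standard errors and 95% intervals come from the quasi-likelihood F. DESeq2, the method that the paper names, was run as an alternative (version 1.42.0 here), and limma 3.58.1 was used on the log2 values. At these thresholds the paper reports 32 genes higher and 28 lower. The DESeq2 run here called 129 higher and 197 lower, so its calls are not those of the paper. On the log2(TPM + 1) values limma called 32 higher and 28 lower. Whether these were the same genes as in the paper was not tested. Positions come from GENCODE 44. The procedure was tested on simulated data. The genes, lists and alternatives were chosen with earlier results of these data known. Named genes are the 8, the 3 of the wider list with the smallest p-value in each direction, the nearest neighbors and NQO1. Genes that overlap a member, and markers of other cells without a count or with at least 10 counts in every library, are also named. They were chosen after their values were seen. Of the wider list, 2 tested genes are not reported here by name.

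Exact permutation of 3 against 3 libraries cannot go below p = 0.1, so no such test is given for single values. All 6 libraries were used.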

Additional observations from a re-analysis of the deposited data

How the results depend on the processing

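Of 144 values of the 8 log2 fold changes under other settings, 137 kept their direction and none passed both thresholds. CASP9 changed sign with no count filter (0.0089), with the side as a term (0.036) and without single libraries (range over 6 fits -0.12 to 0.087), among them 0.015 and 0.0063 without control 2 and 3 and 0.087 without sedanolide 1. XIAP changed sign in the log2(TPM + 1) table (-0.050) and with a pseudocount of 0.1 (-0.055), where the cause was not tested. Over the fits without 1 library, CYCS ranged from 0.30 to 0.45 and MCL1 from 0.24 to 0.31, and an unadjusted p under 0.05 was kept in 2 and 1 of the 6. AIFM1 ranged from 0.11 to 0.43, ENDOG from 0.046 to 0.63, BCL2L1 from -0.29 to -0.054, CASP8 from 0.13 to 0.24 and XIAP from 0.030 to 0.26.

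None of the 8 passed both thresholds, while 2 of the 8, 6 of the wider list and 1679 of all genes were at an unadjusted p under 0.05. In the wider list 1 gene passed both thresholds with DESeq2, with no count filter and with the side as a term, and 0 to 1 without single libraries (1 lower gene without sedanolide 3). Over all genes, 94 passed, against 326 with DESeq2, 157 with no count filter, 379 with the side, 60 in the log2(TPM + 1) table, 0 with the replicate block (772 rows of the fit at an unadjusted p under 0.05) and 0 to 135 without single libraries. These were 0 without control 1 (1067 at an unadjusted p under 0.05) or sedanolide 2 (889), 7 without control 2, 28 without control 3 and 12 without sedanolide 1, each with fewer libraries, and 135 without sedanolide 3. In the replicate block 0 of the 8 were called. Same-numbered libraries correlated at -0.13, -0.30 and -0.73 in their deviations. These deviations include the difference between the sides, so they cannot tell whether equal numbers mark a shared culture. The 95% interval lay inside 1.5-fold for 3 of the 8 genes with the replicate block, against 5 as reported. It did so for 4 with no count filter or scaling by library size alone. In the log2(TPM + 1) table it did so for 5, namely CASP8, CASP9, CYCS, AIFM1 and MCL1. With a pseudocount of 0.1 it did so for 4, without CASP9.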
